A study of Mus musculus with 12 samples.

Results

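The MHC class II genes of 4 mouse mammary carcinoma lines were followed through primary tumours: Ciita, H2-Aa, H2-Ab1, H2-Eb1, Cd74, H2-DMa and H2-DMb1. They were chosen by name, as every probeset annotated to 1 of these 7 symbols alone, which gave 64 of the 228090 probesets and 7 of the 16185 genes on the array. Gene levels were tested for genes with at least 3 probesets, so 6 of the 7 genes were among the 15025 tested, and H2-DMb1, with 1 probeset of its own, is described beside them. The probesets numbered 24 for Ciita, 14 for Cd74, 7 for H2-Aa, 7 for H2-Eb1, 6 for H2-DMa and 5 for H2-Ab1.

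The tumours grew from 4T1, 4T07, 168FARN or 67NR cells placed in the mammary fat pad of BALB/c females that were 3 months old, and 12 exon arrays measured total RNA from tumours collected once their average size was 1 to 2 cm, with 3 arrays a line. The lines are related and known to differ in spread: 4T1 completes metastasis, 4T07 reaches the lung without visible nodules, 168FARN reaches lymph nodes and 67NR stays at the primary site. The mice injected numbered 13 for 4T1, 15 for 4T07, 11 for 168FARN and 8 for 67NR, and the labels do not say whether each array stands for a different animal. A p-value here thus weighs a difference between line means against the spread among these arrays. Part of that spread may be technical, so it may not stand for the variation between animals. As each kind of spread is represented by 1 cell line, line and behaviour cannot be told apart. All groups share the host strain, and the labels name no transgene and no treatment. A whole tumour holds cancer cells together with the host's blood, immune and connective tissue cells, so in these bulk samples fewer cells of a type and less RNA per cell cannot be told apart.

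MHC class II molecules are pairs of an alpha and a beta chain that carry peptides from endosomes to the cell surface, where CD4+ T cells read them. The invariant chain Cd74 escorts new pairs to the endosome and blocks their groove until H2-DM, a pair of H2-DMa with an H2-DMb chain, exchanges its last fragment for a peptide. Dendritic cells, B cells and macrophages make these proteins at all times or on activation, and many other cells, tumour cells among them, can be made to do so by interferon gamma. Interferon gamma acts through the kinases Jak1 and Jak2 to switch on Ciita, the coactivator that binds no DNA itself and docks on factors at the X and Y boxes found in front of class II genes.

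The promoters of 3 members are shown because they carry the boxes through which Ciita is known to act. Promoter windows, from 250 bases before to 50 bases after the gene start in RefSeq's GRCm38.p6 assembly, were available for H2-Aa, H2-Eb1, H2-DMb1 and H2-DMa. Capitals mark, in 5′ to 3′ order on the strand of the gene, the X box core AACNGATG and then the Y box core GATTGG. The window of H2-Aa held no AACNGATG, so the cAMP response element TGACGTCA is marked there instead. The windows lie at chr17:34287774-34288073 on the minus strand for H2-Aa, at chr17:34305617-34305916 on the plus strand for H2-Eb1 and at chr17:34152941-34153240 on the plus strand for H2-DMb1.
H2-Aa: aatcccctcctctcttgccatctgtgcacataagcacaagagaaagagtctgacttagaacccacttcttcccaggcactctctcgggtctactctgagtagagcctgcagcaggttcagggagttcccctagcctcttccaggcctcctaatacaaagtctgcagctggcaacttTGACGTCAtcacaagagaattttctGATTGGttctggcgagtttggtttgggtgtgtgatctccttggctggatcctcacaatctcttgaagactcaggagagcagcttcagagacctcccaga
H2-Eb1: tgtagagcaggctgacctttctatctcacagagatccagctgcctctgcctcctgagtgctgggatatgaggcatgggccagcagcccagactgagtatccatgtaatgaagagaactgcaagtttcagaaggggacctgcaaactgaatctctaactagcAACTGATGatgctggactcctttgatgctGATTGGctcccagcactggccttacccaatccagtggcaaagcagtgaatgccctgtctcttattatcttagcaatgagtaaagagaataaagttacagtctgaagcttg
H2-DMb1: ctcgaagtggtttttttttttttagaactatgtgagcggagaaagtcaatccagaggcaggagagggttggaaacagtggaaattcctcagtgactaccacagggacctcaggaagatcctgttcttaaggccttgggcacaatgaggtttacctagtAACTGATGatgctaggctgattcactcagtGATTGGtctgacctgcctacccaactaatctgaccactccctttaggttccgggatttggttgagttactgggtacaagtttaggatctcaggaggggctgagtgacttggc

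The marked motifs came in the same order in the 3 windows, since the search asked for that order. The Y box core began 49 bases before the start of H2-Aa, 60 before that of H2-Eb1 and 62 before that of H2-DMb1. The gap between the marked motifs was 17, 21 and 22 bases in the same order of genes. For H2-Aa it was counted from the cAMP response element and for the others from the X box core, so it is not measured alike. Searched on either strand, GATTGG was present in 16.1% of the 32851 promoter windows of the table, AACNGATG in 2.32% and TGACGTCA in 1.79%. An X box core or cAMP response element followed within 60 bases by GATTGG on the strand of the gene was present in 29 windows (0.0883%), and those included the class II genes H2-DMb2 and H2-Eb2 next to the members. Neither of the windows of H2-DMa held the pair. The letters were chosen with these promoters in view, and a match describes the sequence alone.

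The arrays were alike within lines, with correlations of gene levels of 0.979 to 0.989 within a line and 0.925 to 0.981 between lines, and no columns were identical. Array medians lay between 7.21 and 7.57 on the log2 scale. As a measure of background, 95% of the 335 olfactory receptor genes, which are silent in most tissues, had mean levels under 5.08, and 95% of their probesets were under 5.98. Skeletal muscle markers stood out on arrays 2 and 3 of 168FARN, where the mean of 10 genes was 8.20 and 9.15, against 5.62 on array 1 of the same line. Gene-level comparisons with 168FARN were therefore repeated with its array 1 as the only array of that line, and calls of the named genes that were lost in that fit are given beside them. The tumours were checked against epithelial markers: the keratin Krt8 averaged 12.07 ± 0.17 in 4T1, 11.65 ± 0.53 in 4T07, 11.44 ± 0.09 in 168FARN and 6.60 ± 0.61 in 67NR (SD, n = 3), and Epcam was 10.36 ± 0.28, 9.82 ± 1.17, 7.01 ± 0.29 and 5.73 ± 0.95 in the same order. Other epithelial markers were dim in 168FARN as well as in 67NR: Krt18 averaged 12.40 in 4T1, 11.67 in 4T07, 7.22 in 168FARN and 6.14 in 67NR, and Cdh1 averaged 8.82, 8.64, 6.59 and 6.21.

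All 7 genes kept 1 order of line means: highest in 4T07, then 4T1, then 67NR, and lowest in 168FARN. That order was found in 686 of the 15025 genes tested (4.57%). Averaged over the 7 genes, the log2 level was 9.51, 9.48 and 9.71 on the 4T1 arrays, 9.72, 10.23 and 10.25 on the 4T07 arrays, 8.10, 8.16 and 8.17 on the 168FARN arrays and 9.50, 9.05 and 9.01 on the 67NR arrays. The 168FARN arrays were the lowest and close to each other. In the F-test of limma across the 4 lines, 6 of 6 members passed at an adjusted p under 0.05, where 42.0% of all genes did. Adjusted p-values ranged between 3.53e-06 for Cd74 and 0.00131 for H2-Aa.

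**Figure D1:**
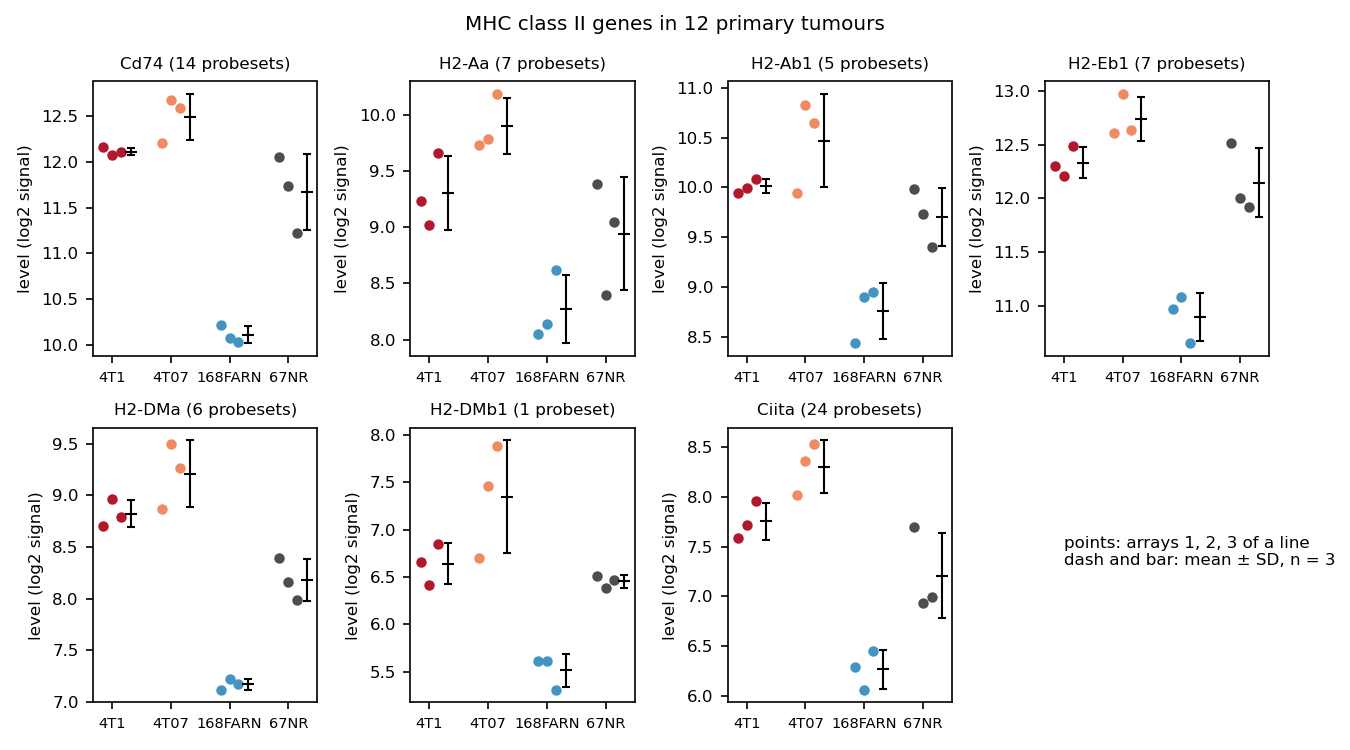
Log2 signal of each MHC class II gene (vertical axes) on each of the 12 arrays, by line (4T1, 4T07, 168FARN, 67NR), with points for arrays and bars for the mean and SD of 3 arrays. The 168FARN tumours have the lowest mean in all panels, with points apart from those of 67NR in 6 of the 7 genes, and H2-Aa is the panel where 168FARN and 67NR overlap.

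Ciita, the coactivator of class II transcription, was 7.59, 7.72 and 7.95 on the 4T1 arrays, 8.02, 8.37 and 8.53 on the 4T07 arrays, 6.29, 6.06 and 6.45 on the 168FARN arrays and 7.70, 6.93 and 6.99 on the 67NR arrays. The 4T07 arrays lay above all others, the 168FARN arrays lay below all others, and 4T1 and 67NR overlapped. The level of Ciita was 4.10-fold higher in 4T07 than in 168FARN tumours (log2 change 2.04, SE 0.22, adjusted p = 1.63e-05) and 2.80-fold higher in 4T1 than in 168FARN tumours (log2 change 1.48, adjusted p = 0.000182). It fell by 0.94 on the log2 scale in 168FARN relative to 67NR tumours (adjusted p = 0.00629), and with array 1 as the only 168FARN array this call was lost (fell by 0.91, adjusted p = 0.0865). Ciita was 2.14-fold higher in 4T07 than in 67NR tumours (adjusted p = 0.00217).

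H2-Aa and H2-Ab1 encode the alpha and the beta chain of the I-A molecule, and H2-Eb1 encodes the beta chain of I-E. H2-Aa measured 9.23, 9.02 and 9.66 in 4T1, 9.73, 9.79 and 10.18 in 4T07, 8.05, 8.14 and 8.62 in 168FARN and 9.38, 8.40 and 9.05 in 67NR. It was the most scattered member within 67NR (SD 0.50), and the 67NR arrays overlapped both 4T1 and 168FARN, whereas all 4T07 arrays lay above the rest.

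H2-Ab1 measured 9.95, 10.00 and 10.09 in 4T1, 9.94, 10.83 and 10.64 in 4T07, 8.43, 8.90 and 8.95 in 168FARN and 9.98, 9.73 and 9.40 in 67NR. Here 168FARN was below all other arrays, and the remaining 3 lines overlapped. H2-Eb1 measured 12.30, 12.21 and 12.49 in 4T1, 12.61, 12.97 and 12.63 in 4T07, 10.96, 11.08 and 10.65 in 168FARN and 12.51, 12.00 and 11.92 in 67NR. All 4T07 arrays were above, and all 168FARN arrays below, the overlapping 4T1 and 67NR arrays.

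Between 4T07 and 168FARN tumours the chains were 3.10-fold (H2-Aa, adjusted p = 0.000405), 3.27-fold (H2-Ab1, adjusted p = 0.000119) and 3.58-fold (H2-Eb1, adjusted p = 1.19e-05) higher in 4T07. Between 4T1 and 168FARN tumours they were 2.05-fold (adjusted p = 0.00751), 2.38-fold (adjusted p = 0.0011) and 2.70-fold (adjusted p = 8.02e-05) higher in 4T1, in the same order of genes.

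The invariant chain Cd74 had the largest change of the tested members between 4T07 and 168FARN and the smallest scatter in 4T1. Its levels were 12.16, 12.07 and 12.10 in 4T1, 12.20, 12.67 and 12.59 in 4T07, 10.22, 10.08 and 10.04 in 168FARN and 12.05, 11.74 and 11.23 in 67NR. No array of one line overlapped another line for this gene, although the lowest 4T1 array and the highest 67NR array nearly met. Cd74 was 5.18-fold higher in 4T07 than in 168FARN tumours (log2 change 2.37, SE 0.20, adjusted p = 1.77e-06) and 3.99-fold higher in 4T1 than in 168FARN tumours (log2 change 2.00, adjusted p = 6.86e-06). It fell by 1.56 on the log2 scale in 168FARN relative to 67NR tumours (2.95-fold lower, adjusted p = 8.74e-05).

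H2-DMa, the alpha chain of the peptide exchanger H2-DM, had levels of 8.70, 8.96 and 8.79 in 4T1, 8.86, 9.50 and 9.26 in 4T07, 7.12, 7.22 and 7.18 in 168FARN and 8.39, 8.16 and 7.99 in 67NR. Arrays of 4T1 and 4T07 overlapped, while 67NR lay below both and 168FARN below 67NR. It was 4.11-fold higher in 4T07 and 3.14-fold higher in 4T1 than in 168FARN tumours (adjusted p = 2.35e-06 and 1.28e-05).

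For H2-DMb1, a beta chain of H2-DM, the single probeset read 6.66, 6.41 and 6.85 in 4T1, 6.70, 7.45 and 7.88 in 4T07, 5.62, 5.62 and 5.31 in 168FARN and 6.51, 6.38 and 6.47 in 67NR. All 3 arrays of 168FARN were under the probeset background of 5.98, so differences from that line may be larger than measured. When genes with 1 probeset were let into the fit, H2-DMb1 was 1.83 higher in 4T07 than in 168FARN on the log2 scale (adjusted p = 0.000147) and 1.13 higher in 4T1 than in 168FARN (adjusted p = 0.00388). It fell by 0.94 in 168FARN relative to 67NR (adjusted p = 0.0146) and was 0.89 higher in 4T07 than in 67NR (adjusted p = 0.0196). The 3 probesets that the annotation gives to H2-DMb1 together with its neighbour H2-DMb2 are no members, and they were brighter, with means of 10.21 to 11.88 in 4T1, 10.97 to 12.41 in 4T07, 8.16 to 9.92 in 168FARN and 9.35 to 11.34 in 67NR. These shared probesets kept the order of lines seen in the members.

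Scatter within lines was shared by the genes in 4T07 and 67NR and less so in the other lines. Array 1 of 4T07 was the lowest of its line in 7 of 7 members, and array 1 of 67NR was the highest of its line in 7 of 7. In 4T1 array 3 was the highest in 5 members, and the lowest was array 1 in 3 and array 2 in 4. In 168FARN the highest was array 1 in 1, array 2 in 3 and array 3 in 3 members. T cell markers averaged 6.87 on array 1 of 4T07, against 7.75 and 7.04 on its other arrays, and 6.83 on array 1 of 67NR, against 6.44 and 6.38 on its other arrays. Array 1 of 4T07 was also the lowest of its line for leukocyte markers (10.85, against 11.16 and 11.02) and macrophage markers (9.31, against 9.63 and 9.75). It was not the lowest for B cell markers (6.67, against 7.52 and 6.12) or epithelial markers (9.19, against 8.70 and 10.43). Array 1 of 67NR was the highest for leukocyte markers (10.88, against 10.73 and 10.77) and the lowest for B cell markers (5.38, against 5.72 and 5.41). The part of T cells or of any other cells in the scatter was not tested.

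Each pair of lines was compared in 1 fit, so comparisons that have a line in common share its arrays. The change of class II genes was widest between the lung-reaching lines and 168FARN. In 4T07 against 168FARN tumours, 6 of 6 members were called higher, where 11.4% of all genes were, and 6 differed at least 2-fold, where 10.5% of genes did. No 4T07 array overlapped a 168FARN array in any of the 6 (14.8% of all genes), and the median change of the members was 1.94 on the log2 scale, against -0.09 over all genes.

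In 4T1 against 168FARN tumours, 6 of 6 were again called higher (11.9% of all genes), 6 at least 2-fold (11.8%) and 6 without overlap of arrays (18.0%). The median change was 1.46, against -0.08 over all genes. These calls remained in each alternative processing and with array 1 as the only 168FARN array, where log2 changes of the members were 1.77 to 2.27 in 4T07 and 1.25 to 1.89 in 4T1 relative to 168FARN.

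In 168FARN against 67NR tumours, 5 of 6 members were called lower, where 11.2% of all genes were, and 3 of them differed at least 2-fold (8.24% of all genes). In 5 of 6 the arrays did not overlap (18.5%). The median change was -0.98, against 0.04 over all genes. H2-Eb1 fell by 1.25 (adjusted p = 0.000357), H2-DMa by 1.01 (adjusted p = 0.000958) and H2-Ab1 by 0.95 (adjusted p = 0.00891). H2-Aa missed the threshold (-0.67, adjusted p = 0.0742) and passed it without array 2 of 67NR (adjusted p = 0.0173) or without array 3 of 168FARN (adjusted p = 0.047). It also passed with the mean of probesets (adjusted p = 0.0287), with probesets above background (0.029), with quantile normalization (0.046) and with eBayes trend and robust options (0.043). With array 1 as the only 168FARN array 4 of 6 were called, H2-Aa and Ciita being the others. Over all genes 54.7% of the calls in this comparison were higher in 168FARN, against 46.0% under quantile normalization and 44.0% with arrays centred on their medians, while the members' direction was kept.

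The 4T07 tumours were also above 67NR. All 6 tested members were called higher in 4T07 (11.0% of all genes), 2 of them at least 2-fold (9.53%) and 5 without overlap of arrays (16.4%), with a median change of 0.89, against -0.04 over all genes. H2-DMa was 1.03 higher (adjusted p = 0.000749) and Cd74 0.82 higher (adjusted p = 0.00826). H2-Aa was 0.96 higher (adjusted p = 0.0155), H2-Ab1 0.76 (adjusted p = 0.0288) and H2-Eb1 0.59 (adjusted p = 0.0356), and each of these 3 calls was lost without one array or another. H2-Aa was also not called from the mean of its probesets (0.50 higher, adjusted p = 0.0543), nor H2-Ab1 and H2-Eb1 when 4T07 and 67NR alone were fitted (adjusted p = 0.0633 and 0.0753). Without array 2 of 67NR 3 of 6 were called, since H2-Aa, H2-Ab1 and H2-Eb1 had adjusted p-values of 0.0754, 0.069 and 0.126. H2-Ab1 and H2-Eb1 also lost the call without array 3 of 67NR (0.114 and 0.133) or array 2 of 4T07 (0.115 and 0.128), and H2-Aa and H2-Ab1 without array 3 of 4T07 (0.0601 and 0.088), all adjusted p-values of limma.

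In 4T1 against 67NR tumours 1 of 6 members was called, H2-DMa, at 0.64 higher in 4T1 (adjusted p = 0.0174), where 9.38% of all genes were called higher. Arrays did not overlap for H2-DMa and Cd74, 2 of 6 (18.7% of all genes). The H2-DMa call was lost without array 2 of 67NR (adjusted p = 0.0558), array 3 of 67NR (adjusted p = 0.0722) or array 2 of 4T1 (adjusted p = 0.071). Intervals of 95% for the log2 changes of the others were 0.02 to 0.86 for Cd74, -0.19 to 0.92 for H2-Aa, -0.19 to 0.80 for H2-Ab1, -0.22 to 0.59 for H2-Eb1 and 0.08 to 1.01 for Ciita. Without array 1 of 67NR, where the members were high, Ciita (adjusted p = 0.0148) and Cd74 (adjusted p = 0.0452) were called too, which made 3 of 6.

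Between 4T1 and 4T07 tumours 0 of 6 members were called by limma, where 2.38% of all genes were, and 4 had an unadjusted p under 0.05, where 13.2% of genes did. All 6 changes were negative, between -0.60 for H2-Aa and -0.38 for Cd74, and arrays did not overlap in 4 of 6, where 10.1% of all genes were lower without overlap. Intervals were -1.02 to -0.09 for Ciita, -1.15 to -0.04 for H2-Aa and -0.80 to 0.05 for Cd74.

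**Figure D2:**
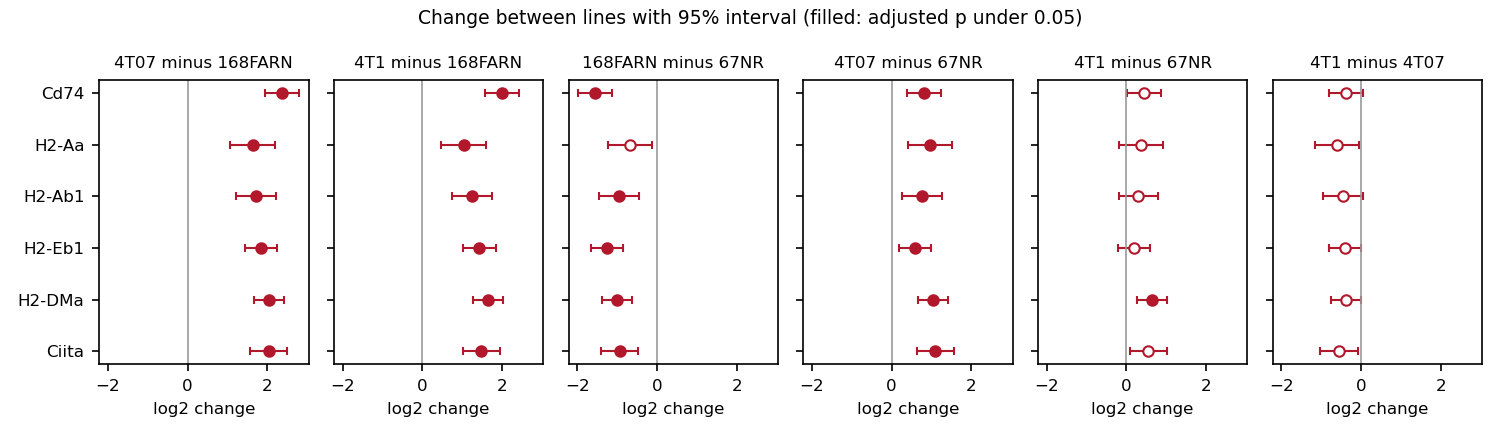
Log2 change of each member (horizontal axes, with 95% intervals from limma) in the 6 comparisons of lines, 1 panel each, with filled points for an adjusted p under 0.05. All members are filled on the right of 0 in 4T07 minus 168FARN and 4T1 minus 168FARN, and no member is filled in 4T1 minus 4T07.

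The same pattern was present probeset by probeset. Of the 64 probesets, 59 had a mean above the probeset background. In 4T07 against 168FARN 63 of 64 were higher in 4T07, where 44.9% of the 146237 single-gene probesets above background were, and in 4T1 against 168FARN 64 of 64 were higher in 4T1 (46.8%). In 168FARN against 67NR 63 of 64 were lower in 168FARN (50%). The 4T07 and 4T1 tumours were above 67NR in 62 and 63 of 64 probesets (44.9% and 46.4%), and 57 of 64 were lower in 4T1 than in 4T07 (48.4%). Probesets of 1 gene share their RNA and are not replicates.

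The size of the change varied along genes. Between 4T07 and 168FARN the log2 changes were 1.02 to 1.77 over the 5 probesets of H2-Ab1, 1.09 to 2.21 over those of H2-Eb1, 0.62 to 2.45 over those of H2-DMa and 1.77 to 2.66 over the Cd74 probesets above background. The Ciita probesets ranged over 0.21 to 3.54, and the upper value is of probeset 5062790, whose 168FARN mean of 4.26 was under the probeset background. Its probeset 5455886 averaged 8.02 in 4T1, 8.74 in 4T07, 5.31 in 168FARN, also under that background, and 6.94 in 67NR, while its probeset 5101782 stayed at 6.66, 6.66, 6.45 and 6.48 in the same lines.

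**Figure D3:**
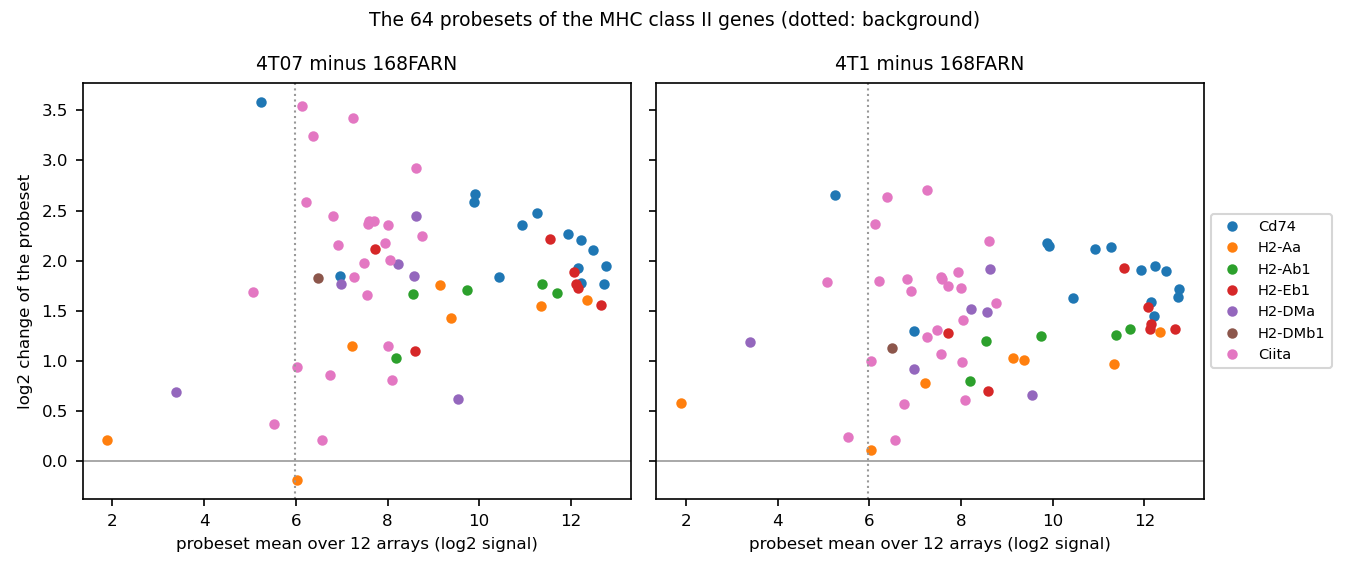
Mean log2 signal of each of the 64 member probesets over 12 arrays (horizontal axes) against its log2 change (vertical axes), for 4T07 minus 168FARN and for 4T1 minus 168FARN, coloured by gene, with a dotted line at the probeset background of 5.98. Points lie above 0 in 63 of 64 cases in the first panel, the exception being an H2-Aa probeset near background, and in 64 of 64 in the second.

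Probesets that changed differently from the rest of their gene were sought with limma's diffSplice, which covered 36 probesets of 5 members. It left out Ciita, under its filter on dim genes, and H2-DMb1. A call needed an adjusted p under 0.05 and, relative to the gene, a change of 1 or more (log2). There were 2 calls, both in 4T07 against 168FARN, where 0.761% of the 110320 probesets were called. Probeset 4856726 of H2-DMa averaged 9.82 in 4T1, 9.79 in 4T07, 9.17 in 168FARN and 9.40 in 67NR, so it was higher in 4T07 than in 168FARN but changed by 1.38 less than its gene (relative change -1.38, adjusted p = 0.000911). Probeset 5415009 of H2-Aa was at 6.21, 5.91, 6.10 and 5.91, near the background of 5.98, with a relative change of -1.69 (adjusted p = 0.000583) that was not called without array 2 of 4T07 (adjusted p = 0.0589). The splicing index, the second test of the same probesets, called the H2-DMa probeset alone (relative change -1.41, adjusted p = 0.0455), and that probeset was not called by diffSplice without its filter on dim probesets and genes (relative change -1.12, adjusted p = 0.0941).

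Without the filter on dim probesets and genes, Ciita entered the test and most of the added calls were its own. Its probeset 4980031 was at 6.87 ± 0.15 in 4T1, 7.67 ± 0.17 in 4T07, 5.08 ± 0.39 in 168FARN and 5.24 ± 0.51 in 67NR (SD, n = 3). In 4T07 against 67NR it rose 1.33 more than the rest of Ciita on the log2 scale (adjusted p = 0.0115), and its levels in 168FARN and 67NR were under the probeset background. Ciita is known to be transcribed from several promoters with their own first exons, but the exon behind each probeset was not analysed here.

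Genes with the most similar pattern were ranked among 15019 other tested genes by the root-mean-square difference over the 12 arrays between their centred level and the centred average of the members. The members themselves differed from the average of the others by 0.17 (Ciita) to 0.32 (H2-Aa), the median gene differed by 0.82, and 1% of genes differed by less than 0.39. Closest were 9330175E14Rik (0.16), Evc2 (0.19), Eml2 (0.20), Ddx19b (0.20), Aldh3a2 (0.22), H2-Ea (0.22), Mapkapk3 (0.22), Nqo1 (0.22), Itgal (0.23) and Acsf2 (0.24). Of these 10, H2-Ea encodes the alpha chain that pairs with H2-Eb1, and Itgal encodes a leukocyte integrin chain. H2-Ea averaged 12.37 ± 0.30 in 4T1, 12.89 ± 0.15 in 4T07, 11.41 ± 0.21 in 168FARN and 12.12 ± 0.30 in 67NR (SD, n = 3). Chosen by their likeness, these genes carry no test.

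Counts in the rest of the class II route were mixed. Of the other chains and loading genes, 2 of 5 were measured. H2-Ea was 1.48 higher in 4T07 than in 168FARN tumours (adjusted p = 0.000102), 0.96 higher in 4T1 than in 168FARN (adjusted p = 0.0022) and 0.71 lower in 168FARN than in 67NR (log2 change -0.71, adjusted p = 0.0175), and with array 1 as the only 168FARN array the last of these calls was lost (-0.93, adjusted p = 0.0534). H2-Oa, the alpha chain of the H2-DM inhibitor H2-O, was called in no comparison, with means of 6.64 in 4T1, 6.58 in 4T07, 5.98 in 168FARN and 6.0 in 67NR.

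The factors that bind the X and Y boxes gave few calls, in both directions. In 4T07 against 168FARN 0 of 7 were called (median change -0.15), where 28.3% of all genes were called in either direction, and 0 of the 7 were called with array 1 as the only 168FARN array. In 168FARN against 67NR Rfxank was higher (0.59, adjusted p = 0.0296), while Rfxap (-0.80, adjusted p = 0.0112) and Nfyb (-0.63, adjusted p = 0.047) were lower, and none of the 7 was called with array 1 alone. Rfxap and Nfyb were lower than in 67NR also in 4T07 (-0.93 and -0.86) and in 4T1 (-0.66 and -0.78), where 6 and 1 of the 6 class II genes were called higher. The part of these factors in the class II levels was not tested. Rfx5, the DNA-binding subunit of the complex that Rfxap and Rfxank belong to, was called in no comparison. In 4T1 against 168FARN 1 of 7 factors was called, Creb1, which was higher in 4T1 (means of 9.6 and 9.0), where 11.9% of all genes were called higher. With array 1 as the only 168FARN array, Creb1 was 0.85 higher in 4T1. Antigen-processing genes gave 0 calls of 6 in 4T07 against 168FARN. In 4T1 against 168FARN 1 of 6 was called higher and 1 lower, and the thiol reductase Ifi30 was 0.72 higher in 4T1 (adjusted p = 0.00943). In 168FARN against 67NR 1 of 6 was called higher in 168FARN, opposite to the class II genes, and 0 lower.

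Genes of interferon gamma signalling were in part higher in 4T07 and 4T1 than in 168FARN, where 11.4% and 11.9% of all genes were called higher. In 4T07 against 168FARN 4 of 7 were called higher (2 with array 1 as the only 168FARN array). Ifng itself averaged 5.26 ± 0.47 in 4T1, 6.39 ± 0.24 in 4T07, 4.95 ± 0.53 in 168FARN and 5.33 ± 0.29 in 67NR (SD, n = 3), with all 4T07 arrays (6.20 to 6.66) above the other arrays, which lay around the background of 5.08 (4.52 to 5.68). In 4T07 it was 1.44 above 168FARN (adjusted p = 0.00196) and 1.06 above 67NR (adjusted p = 0.0154), and the call against 168FARN was lost with array 1 as the only 168FARN array (0.84, adjusted p = 0.14). Irf1, a transcription factor induced by interferon gamma, was 1.34 above 168FARN in 4T07 (adjusted p = 6.87e-05) and 0.84 above it in 4T1 (adjusted p = 0.00202). Jak2 was 1.36 above 168FARN in 4T07 and 1.75 above it in 4T1 (adjusted p = 0.00107 and 0.000138). Between 168FARN and 67NR, Irf1 differed by -0.02 and Jak2 by -0.23, and neither was called, whereas Socs1, a feedback inhibitor, and Jak1 were lower in 168FARN (-1.0 and -0.79, adjusted p = 0.00316 and 0.000823).

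Targets of interferon gamma were higher in 4T07, as the class II genes were, but also higher in 168FARN than in 67NR in part. In 4T07 they were called higher in 7 of 7 against 168FARN (11.4% of all genes) and in 7 of 7 against 67NR (11.0%). The median changes were 1.16 and 1.94. In 168FARN against 67NR 4 of 7 were called higher in 168FARN (13.5% of all genes), the opposite direction to the class II genes, with the GTPases Igtp at 1.09 (adjusted p = 0.0141) and Gbp3 at 1.06, and 0 of 7 with array 1 as the only 168FARN array. The difference between the lists was not tested. The chemokine Cxcl9 had its lowest mean in 168FARN, as the members did, at 8.46 ± 0.72 in 4T1, 9.78 ± 0.08 in 4T07, 7.14 ± 0.33 in 168FARN and 7.85 ± 0.62 in 67NR (SD, n = 3). In 4T1 against 168FARN Cxcl9 was the 1 target of 7 called (1.32 higher, adjusted p = 0.0101), and with array 1 alone none was, whereas 6 of 6 class II genes were called in both cases.

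The MHC class I route, which shows peptides from the cytosol to CD8+ T cells, was likewise higher in 168FARN than in 67NR in 7 of 9 genes (3 of 9 with array 1 alone). Over all genes 13.5% were called higher in that comparison. The immunoproteasome subunit Psmb8 of this route averaged 9.35 ± 0.11 in 4T1, 9.73 ± 0.34 in 4T07, 9.48 ± 0.18 in 168FARN and 7.32 ± 0.33 in 67NR. Psmb8 was thus 2.16 above 67NR in 168FARN (adjusted p = 7.28e-06), the line with the lowest class II levels. Between 4T07 and 168FARN the class I route had 2 of 9 genes called higher in 4T07 (11.4% of all genes), against 6 of 6 class II members.

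Among genes of costimulation and turnover, Cd80, a ligand of CD28, changed in the direction opposite to the class II genes. It was 1.05 higher in 168FARN than in 67NR (adjusted p = 0.00325), 1.69 lower in 4T07 than in 168FARN (log2 change -1.69, adjusted p = 7.52e-05) and 1.83 lower in 4T1 than in 168FARN (log2 change -1.83, adjusted p = 3.24e-05). Cd86, the other such ligand, was 0.81 and 0.76 above 168FARN in 4T07 and 4T1 (adjusted p = 0.00598 and 0.00729), and Cd40 was 1.13 and 0.75 above it (adjusted p = 0.0015 and 0.0164). Marchf8, a ubiquitin ligase that sends surface proteins to be degraded, was 0.70 and 0.64 lower (log2 changes -0.70 and -0.64, adjusted p = 0.00901 and 0.0134). With array 1 as the only 168FARN array, both Marchf8 calls were lost (adjusted p = 0.236 and 0.295), as was that of Cd40 in 4T1 (adjusted p = 0.0811). Il10 was under background in each line.

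**Figure D4:**
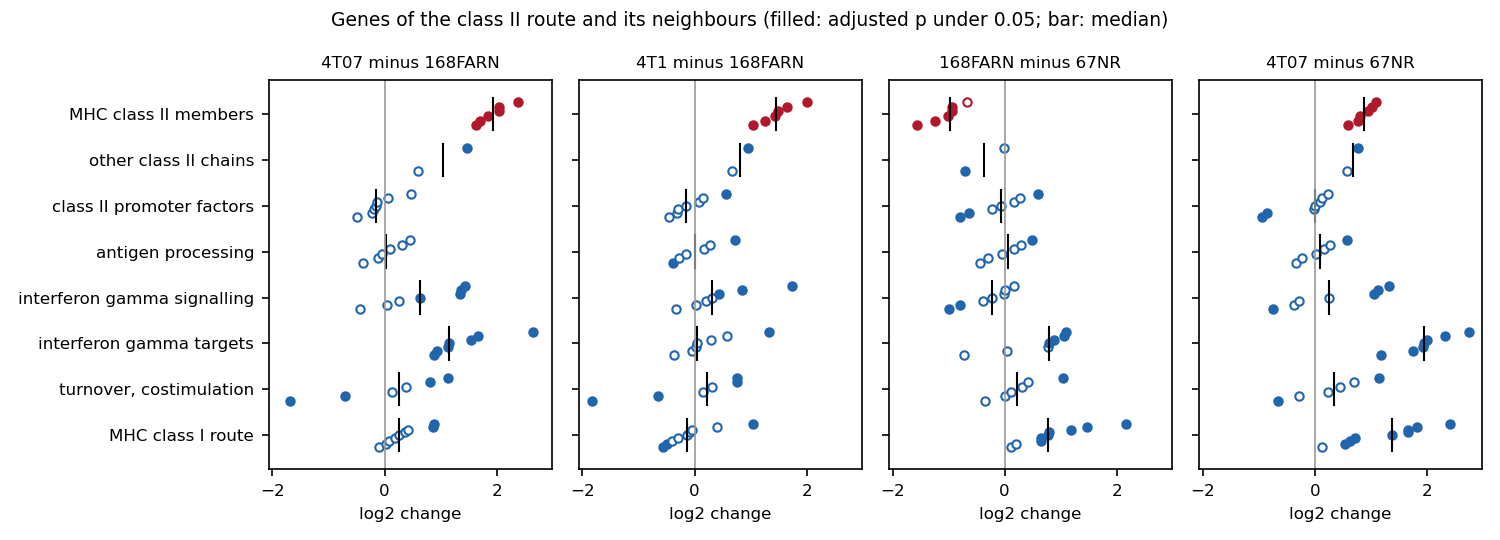
Log2 change (horizontal axes) of each measured gene of the class II members and of 7 lists around the class II route, in 4T07 minus 168FARN, 4T1 minus 168FARN, 168FARN minus 67NR and 4T07 minus 67NR, with filled points for an adjusted p under 0.05 and a bar at the median of each list. The class II members lie right of 0 in 3 panels and left of 0 in 168FARN minus 67NR, where the medians of interferon gamma targets and of the class I route are 0.78 and lie right of 0.

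Markers of leukocytes as a whole, not of cells with class II molecules alone, also differed between lines. Over 4 genes of all leukocytes, the mean level was 11.04 to 11.08 in 4T1, 10.85 to 11.16 in 4T07, 10.19 to 10.54 in 168FARN and 10.73 to 10.88 in 67NR, so 168FARN was lowest here too. In 4T1 against 168FARN 4 of 4 were called higher (11.9% of all genes) and in 4T07 against 168FARN 2 of 4 (11.4%). Their median changes were 0.66 and 0.55, against 1.46 and 1.94 for the class II genes. In 168FARN against 67NR 2 of 4 were called lower (11.2% of all genes), with a median change of -0.32 (class II -0.98). With array 1 as the only 168FARN array, the counts were 4 and 3 of 4 higher in 4T1 and 4T07 and 1 of 4 lower in 168FARN than in 67NR.

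Among lists of single cell types the agreement with the class II genes was partial. Macrophage and monocyte markers, 12 genes, averaged 9.81 to 9.91 in 4T1, 9.31 to 9.75 in 4T07, 9.42 to 9.49 in 168FARN and 10.01 to 10.08 in 67NR, and were thus highest in 67NR. In 4T07 against 67NR 4 of 12 were called lower (12.7% of all genes) and 0 higher, while 6 of 6 class II genes were called higher. In 4T1 against 168FARN 7 of 12 were called higher (11.9% of all genes), as the class II genes were, and 1 lower. The median change there was 0.55, against 1.46 for the class II genes. In 4T07 against 168FARN 3 were called higher (11.4% of all genes) and 1 lower, with a median change of -0.07. In 168FARN against 67NR 5 of 12 were called lower (11.2% of all genes). Cd163, a macrophage scavenger receptor, was 7.55 ± 0.10 in 4T1, 7.67 ± 0.08 in 4T07, 6.44 ± 0.41 in 168FARN and 7.87 ± 0.11 in 67NR (SD, n = 3). Adgre1 and Cd14, also on this list, instead had their highest mean in 168FARN, at 9.81 and 8.97.

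Dendritic cell markers, 9 genes, averaged 6.50 to 6.76 in 4T1, 6.56 to 6.91 in 4T07, 6.23 to 6.52 in 168FARN and 6.32 to 6.59 in 67NR, with 168FARN and 4T07 as the lowest and the highest range. One of them, the integrin Itgax, followed the members: it averaged 8.44 ± 0.11 in 4T1, 8.62 ± 0.21 in 4T07, 6.73 ± 0.16 in 168FARN and 7.31 ± 0.29 in 67NR (SD, n = 3), and was 1.89 and 1.70 above 168FARN in 4T07 and 4T1 (adjusted p = 4.39e-06 and 9.35e-06). Siglech, Batf3 and Ccr7 also had their lowest mean in 168FARN (5.59, 6.33 and 7.42), but their highest in 4T1 (6.23, 6.69 and 7.65). Flt3 and Zbtb46, which define dendritic cells more narrowly, differed little, with line means of 5.88 to 6.19 and of 6.62 to 6.94. Cd209a had its highest mean in 168FARN (6.9, against 6.1 in 4T1, 6.2 in 4T07 and 6.2 in 67NR), and Xcr1 in 67NR (6.8). Of the 9 genes, 1 was called higher in 4T07 than in 168FARN (11.4% of all genes) and 0 lower. In 4T1 against 168FARN 2 were called higher (11.9%) and 1 lower.

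B cell markers, 8 genes, scattered within lines: 5.06 to 7.17 in 4T1, 6.12 to 7.52 in 4T07, 5.42 to 6.30 in 168FARN and 5.38 to 5.72 in 67NR. The member genes scattered less in 4T1: on its array 2, where B cell markers were at 5.06 against 7.01 and 7.17 on the others, the class II average was 9.48, against 9.51 and 9.71. The Cr2 level, averaged over all 12 arrays, was under the gene background, with line means of 5.64 in 4T1, 5.82 in 4T07, 4.19 in 168FARN and 4.05 in 67NR. T cell markers, 7 genes, averaged 6.12 to 6.98 in 4T1, 6.87 to 7.75 in 4T07, 5.79 to 5.95 in 168FARN and 6.38 to 6.83 in 67NR. Their line means had the order of the class II genes, though 4T1 (6.58) and 67NR (6.55) were close and their arrays overlapped. In 4T07 against 168FARN 6 of 7 were called higher (3 with array 1 as the only 168FARN array), among them Cd8a at 2.71 (adjusted p = 0.000459). Over all genes 11.4% were called higher in that comparison. The median change of the T cell markers there was 1.37 (class II 1.94). In 4T1 against 168FARN 3 of 7 were called higher (11.9% of all genes), with a median change of 0.74 (class II 1.46). In 168FARN against 67NR 3 of 7 were called lower (11.2%), with a median change of -0.72 (class II -0.98). The T cell markers averaged 5.95, 5.94 and 5.79 on the 168FARN arrays. The part of each of these cell types in the class II levels was not tested.

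**Figure D5:**
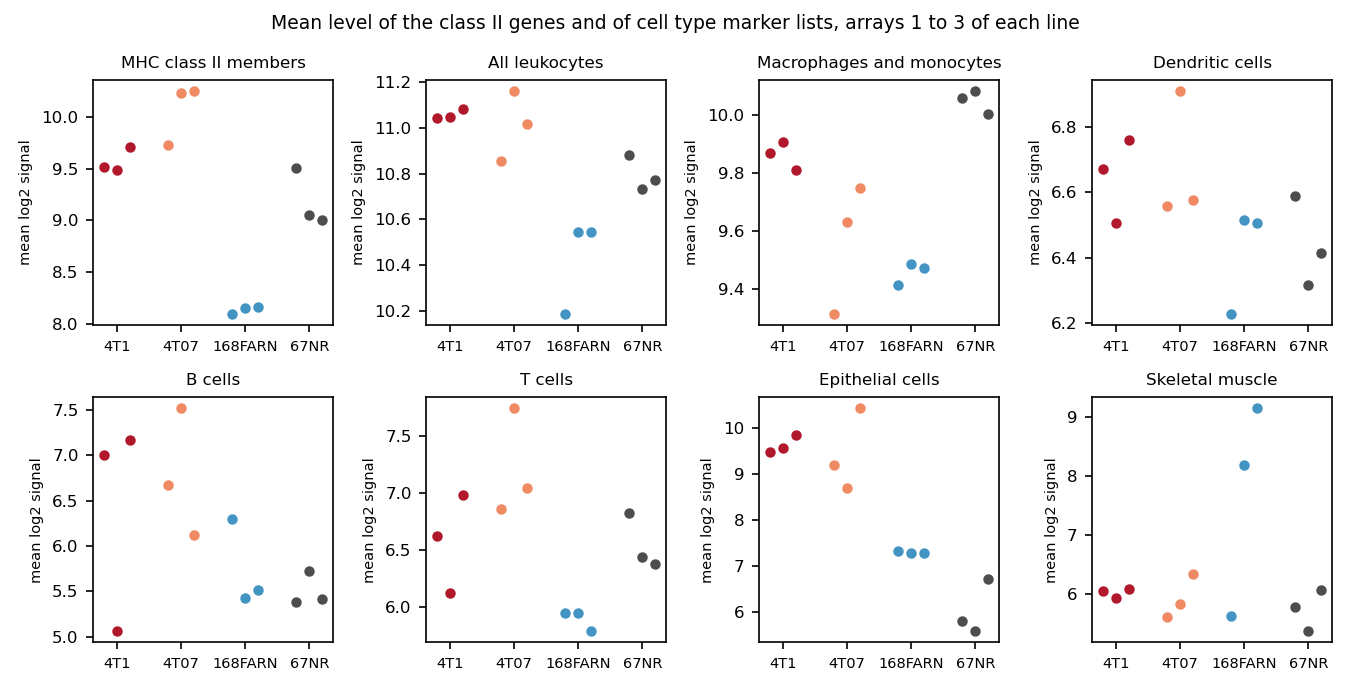
Mean log2 signal (vertical axes) of the class II genes and of marker lists of 7 cell groups, by line (4T1, 4T07, 168FARN, 67NR), with a point for each array. The class II panel, the leukocyte panel and the T cell panel have 168FARN lowest, the macrophage panel has 67NR highest, and the muscle panel has 168FARN arrays 2 and 3 high.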

How the data were processed

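The deposited file holds 1 value per probeset and array for 12 Affymetrix mouse exon arrays, 3 for each line, made from Trizol total RNA with biotin labelling per the labels' protocols. The values are log2 signals as the authors deposited them, a scale read from their range since no label states it. How they were background-corrected, normalized and summarised was not given in the sources used here, so the arrays were used as deposited, and 0 columns were left out. Arrays have no read depth, and their number limits the precision.

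Probesets were named through GEO's platform annotation, with symbols updated through RefSeq GRCm38.p6, used for names alone: 207232 carried 1 symbol, 3882 several and 16976 none. A gene's level was the median of its single-symbol probesets. Lines were tested against each other with limma 3.58.1 under R 4.3.3 (lmFit and eBayes, 4 means, 6 contrasts and an F-test, no covariate), with Benjamini-Hochberg adjustment over 15025 genes and calls at an adjusted p under 0.05. Every adjusted p is from limma. diffSplice used probesets above the 25th percentile in genes above the 50th percentile with at least 4 such probesets. The steps were tested on simulated data. The members and the gene lists were chosen with earlier results of these data known. Named are all members, the list genes called in a comparison described (at most 4 a list), list genes at background and the 10 genes most like the members. Some marker genes (Krt8, Krt18, Cdh1, Epcam, Flt3, Zbtb46, Itgax, Siglech, Batf3, Ccr7, Cd209a, Xcr1, Cd163, Adgre1, Cd14, Cd8a), H2-Oa, Rfx5 and the single probesets were named after their values were seen.

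Replicate numbers were tested as pairs: over 18 pairs of equal number, deviations from line means correlated at -0.09 to 0.19, with 3 over 0.1, so the numbers were not taken to pair the samples. Alternatives were the mean of probesets, probesets or genes above background, quantile normalization, median-centred arrays, genes with 1 or more probesets, eBayes with trend and robust options, a replicate block, 168FARN array 1 alone, the 2 lines alone and leaving out each array.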

Additional observations from a re-analysis of the deposited data

How the results depend on the processing

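No member changed direction under any alternative: of 774 recomputed changes of members 745 kept their side of the threshold, 13 crossed it upward and 16 downward. The calls of all 6 members in 4T07 and in 4T1 against 168FARN held in each alternative run. In 4T1 against 67NR, the 1 member called became 2 with the mean of probesets, with probesets above background, with quantile normalization and with median-centred arrays, in each case by adding Ciita, and 0 to 3 when single arrays were left out. In 4T07 against 67NR, 3 to 6 members were called when single arrays were left out. The 357 genes called between 4T1 and 4T07 became 156 to 531. With array 1 as the only 168FARN array, genes called fell to 1847 against 67NR, and to 2112 for 4T07 and 2470 for 4T1 against 168FARN, from fewer arrays. Lone arrays are assumed there to vary like the other lines. The 2 probesets called apart from their genes became 1 by the splicing index, 14 calls with no filter on dim probesets and genes, and 1 to 3 when single arrays were left out. The share of calls higher in 4T1 was 38.0% against 168FARN (49.9% with quantile normalization, 51.9% centred) and 23.2% against 4T07 (36.3% and 38.4%).

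Equal replicate numbers were not treated as a pairing by design. As a hint from the data alone, 7 of 12 arrays correlated best with an array of their own number. With the replicate as a block, 6 of 6 members were called in the F-test and in 168FARN against 67NR, where H2-Aa was added (adjusted p = 0.0329), and 349 genes were called between 4T1 and 4T07. The other counts of members were those without the block.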
